A study of Mus musculus with 17 samples.

Results

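Microtubules are hollow polymers of α- and β-tubulin, and a young neuron builds them into the tracks of its axon and dendrites with proteins that most other cells hold at low levels. β-tubulin isotypes form the wall, doublecortin and its kinase relatives stiffen it, stathmins bind free tubulin dimers and favor disassembly, and the microtubule-associated proteins MAP1B, MAP2 and tau bundle and space the filaments. *Dcx* and *Tubb3* are widely used as marks of migrating neuroblasts and new neurons, whereas *Map2*, *Mapt* and the doublecortin-like kinases can also be transcribed in glia. In cultures of purified astrocytes such transcripts may come from astrocytes themselves or from other cells that passed the selection, and in bulk RNA fewer cells of a type cannot be told apart from less RNA per cell.

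The transcripts described here are those of 9 genes, *Tubb3*, *Dcx*, *Dclk1*, *Dclk2*, *Stmn2*, *Stmn3*, *Map1b*, *Map2* and *Mapt*, taken by symbol from the 56691 gene rows of a count table of 17 libraries. All 9 were found, and all 9 passed the filter on low counts in each of the 6 comparisons made. They were chosen by a proposal made with results of these same libraries in view, so any of their levels and fold changes may have entered the choice. These values are therefore a description, and an adjusted p only gives the place of a gene among all genes tested.

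The libraries came from astrocytes of whole P2 C57BL/6 mouse brains without meninges, olfactory bulbs and cerebellum, immunopanned by depletion on CD45 and O4 dishes and selection on a HepaCAM dish, and grown without serum. In one experiment, 3 cultures received SAG, a small molecule that activates Smoothened and with it the SHH pathway, at 500 ng/ml, and 3 received its solvent DMSO, for 3 days from day 3 in vitro. In the other, 4 cultures received FGF2 and 3 received FGF10, both at 50 ng/ml, and 4 received PBS, for 7 days from day 2 in vitro. The labels list no transgene or targeted allele, and the sources used here do not say whether replicates came from separate litters, so p-values measure only the spread between these cultures.

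Levels are read counts scaled to a fixed library total (CPM) by the TMM method over all 17 libraries. Because a library holds 1 read per transcript from its 3′ end, CPM does not grow with transcript length and can be set side by side between genes. Total counts ran from 17481727 to 68342287 with a median of 37173676. Of 3926 genes with a mean of 10 to 30 CPM, 7.77% were at 0 in SAG replicate 1, 5.88% in DMSO replicate 3, 5.63% in PBS replicate 1 and 5.60% in SAG replicate 3, and 0.560% to 4.20% in the other 13 libraries. Reads were not reduced to molecules, so a limit of 3 counts, which is 0.0857 CPM in SAG replicate 1 and 0.0965 CPM in SAG replicate 3, covers counting error only. Astrocyte genes stood high, with means over the 17 libraries of 1264 CPM for *Glul*, 1236 CPM for *Slc1a3* and 1202 CPM for *Sox9*. Of 12 microglial and macrophage markers, 10 had a mean under 1 CPM.

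The start regions of *Tubb3*, *Map1b*, *Dcx* and *Dclk1*, whose levels did not overlap between the replicate sets described further on, are shown to place them in the genome and to show how unlike their promoters are. Each run is 300 bases, from 250 before to 50 after a transcription start, 5′ to 3′ on the strand of the gene, from RefSeq on GRCm38.p6, which names 7 of the 9 genes in its promoter table with 9 windows in all. Capitals mark matches, on either strand, to GGGCGG (the Sp1 GC box), TATAAA (the TATA box) and CAGATG (an E-box bound by neurogenic bHLH factors).
Tubb3, chr8:123411303-123411602, plus strand: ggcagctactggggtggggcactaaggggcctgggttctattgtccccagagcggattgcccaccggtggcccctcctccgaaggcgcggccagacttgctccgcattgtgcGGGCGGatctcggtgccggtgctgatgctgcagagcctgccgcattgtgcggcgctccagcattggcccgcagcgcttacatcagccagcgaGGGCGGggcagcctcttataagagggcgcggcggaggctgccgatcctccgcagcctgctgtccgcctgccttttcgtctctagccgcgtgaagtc
Map1b, chr13:99516553-99516852, minus strand: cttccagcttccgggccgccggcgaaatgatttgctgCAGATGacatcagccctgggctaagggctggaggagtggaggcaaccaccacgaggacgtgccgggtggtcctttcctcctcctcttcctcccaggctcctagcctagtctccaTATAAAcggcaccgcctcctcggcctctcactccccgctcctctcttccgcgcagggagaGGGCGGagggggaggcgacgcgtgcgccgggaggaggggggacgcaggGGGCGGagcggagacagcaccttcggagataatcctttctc
Dcx, chrX:143933075-143933374, minus strand: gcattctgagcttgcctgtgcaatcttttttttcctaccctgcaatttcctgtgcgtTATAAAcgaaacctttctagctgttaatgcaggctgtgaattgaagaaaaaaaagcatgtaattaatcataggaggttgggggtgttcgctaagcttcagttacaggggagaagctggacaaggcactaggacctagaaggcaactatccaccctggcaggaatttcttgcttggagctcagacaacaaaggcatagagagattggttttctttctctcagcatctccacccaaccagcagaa
Dclk1, chr3:55242114-55242413, plus strand: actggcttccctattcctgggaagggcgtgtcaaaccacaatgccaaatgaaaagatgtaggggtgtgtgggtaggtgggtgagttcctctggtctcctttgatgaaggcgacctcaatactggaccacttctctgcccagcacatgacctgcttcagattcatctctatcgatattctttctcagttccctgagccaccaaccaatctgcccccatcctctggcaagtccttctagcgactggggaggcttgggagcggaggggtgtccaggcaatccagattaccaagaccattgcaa
The windows of *Tubb3* and *Map1b* were rich in G and C (67.3% and 65.7%) and held 26 and 23 CpG dinucleotides, where the median of all 32851 mouse promoters in the table was 52.7% and 7. Those of *Dcx* (44.7%, 3 CpG) and the first start of *Dclk1* (52.7%, 5 CpG) were not. GGGCGG was in the windows of *Tubb3*, *Map1b*, *Dclk2* and *Map2* and in 35.7% of all promoters, TATAAA in those of *Dcx* and *Map1b* and in 13.6%, and CAGATG in those of *Map1b* and *Stmn3* and in 17.2%. The motif GACCACCCA, which GLI factors bind downstream of Smoothened, was in 0 of the 9 windows and in 0.253% of all promoters, CAGCTG was in 0 and in 16.3%, and the left and right parts of the RE1 element that REST binds were in 0 and in 0.371% and 0.137%. The matches shown do not overlap each other, and a match or its lack says nothing of binding in these cells.

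The 9 genes covered a wide range of levels. *Map2* had the highest mean over the 17 libraries, 658 CPM, and ranked 136 of all genes. *Mapt* followed at 479 CPM and *Dclk1* at 431 CPM, and the ranges of these neighbors, 184 to 748 CPM and 165 to 652 CPM, overlapped almost whole. *Dclk2* (173 CPM) and *Map1b* (124 CPM) came next, then *Tubb3* (39.2 CPM), *Stmn3* (25.5 CPM) and *Dcx* (15.9 CPM), whose ranges also overlapped, and *Stmn2* was lowest at 4.83 CPM with 3 libraries at 0. The genes also differed in how much they varied. The coefficient of variation over all libraries was 13.7% for *Map2* and 16.8% for *Dclk2*, and 92.1% for *Dcx* and 107% for *Stmn2*.

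**Figure D1:**
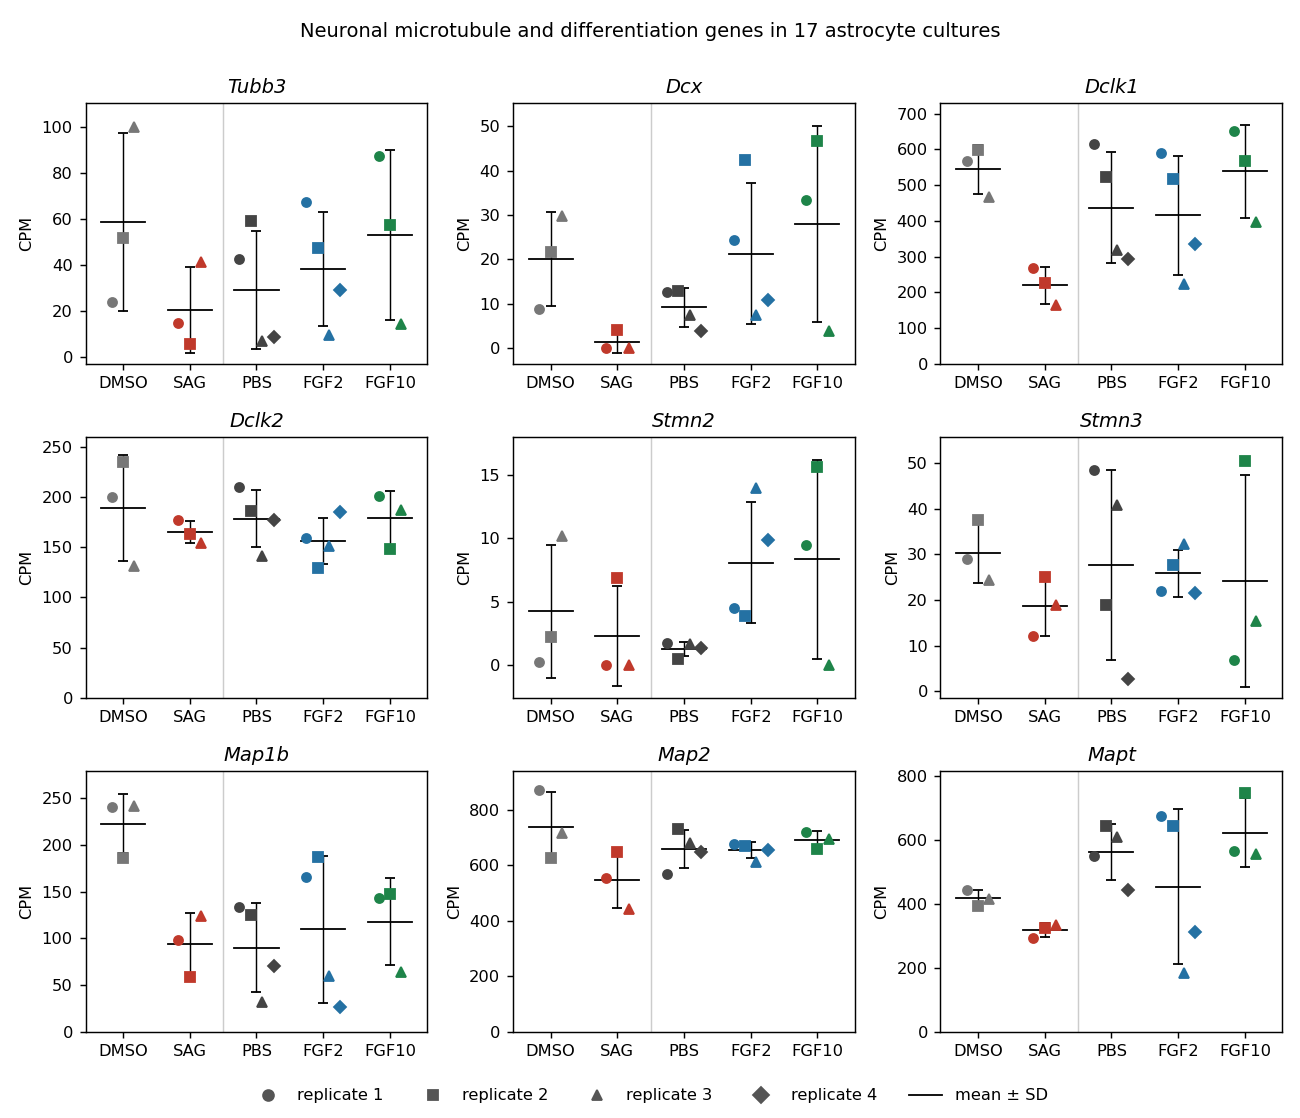
CPM of each of the 9 genes (y axes, linear) in every culture of the 5 groups (x axes). Points are single libraries with the marker giving the replicate number, and lines are the mean ± SD. *Map2* and *Dclk2* sit in a narrow band, *Dclk1* and *Map1b* are lower in all 3 SAG cultures than in all 3 DMSO cultures, and in the PBS, FGF2 and FGF10 groups the circles and squares of replicates 1 and 2 lie above the triangles and diamonds of replicates 3 and 4 for *Tubb3*, *Dclk1* and *Map1b*.

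*Tubb3* (chromosome 8, 123411553 to 123422015) encodes the β-tubulin isotype III of neurons. It was at 23.8, 51.9 and 100 CPM in DMSO replicates 1, 2 and 3 and at 14.5, 5.46 and 41.3 CPM in SAG replicates 1, 2 and 3. It was at 42.4, 59.1, 6.95 and 8.64 CPM in PBS replicates 1 to 4, at 67.6, 47.2, 9.41 and 29.0 CPM in FGF2 replicates 1 to 4, and at 87.6, 57.6 and 14.2 CPM in FGF10 replicates 1 to 3. The DMSO and SAG ranges overlapped, and in the FGF experiment replicates 1 and 2 of every treatment were above 40 CPM while replicates 3 and 4 of every treatment were below 30 CPM. Groups followed the order DMSO, FGF10, FGF2, PBS and SAG (58.7 ± 38.7, 53.1 ± 36.9, 38.3 ± 24.9, 29.3 ± 25.7 and 20.4 ± 18.6 CPM; SD, n = 3, 3, 4, 4 and 3), and no neighbors in this order differed by more than their SD.

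*Dcx* (chromosome X, 143855842 to 143933396) encodes doublecortin, which stiffens microtubules in migrating neuroblasts. It was at 8.80, 21.6 and 29.8 CPM in DMSO replicates 1 to 3, at 0 in SAG replicates 1 and 3, and at 4.03 CPM in SAG replicate 2. In the FGF experiment it was at 12.7, 12.9, 7.48 and 3.88 CPM in the 4 PBS cultures, at 24.4, 42.3, 7.42 and 10.9 CPM in the 4 FGF2 cultures, and at 33.4, 46.7 and 3.79 CPM in the 3 FGF10 cultures. Every SAG culture was below every DMSO culture. Of genes with a mean of 10 to 30 CPM, 7.77% and 5.60% were at 0 in SAG replicates 1 and 3, and 5.88% and 5.63% in DMSO replicate 3 and PBS replicate 1, where *Dcx* was at 29.8 and 12.7 CPM. Among replicates 1 and 2 the 4 FGF-treated cultures were above both PBS cultures, and among replicates 3 and 4 the ranges of PBS and FGF2 overlapped and the FGF10 culture was below both PBS cultures. Group means ran from 28.0 ± 22.0 CPM (SD, n = 3) with FGF10 through 21.3 ± 15.8 with FGF2 (n = 4), 20.1 ± 10.6 with DMSO (n = 3) and 9.24 ± 4.36 with PBS (n = 4) to 1.34 ± 2.33 with SAG (n = 3).

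*Dclk1* (chromosome 3, 55242303 to 55539068) encodes a kinase that carries the doublecortin domains. Its level was 569, 597 and 467 CPM in DMSO and 269, 225 and 165 CPM in SAG replicates 1 to 3. It was 615, 523, 319 and 293 CPM in PBS, 589, 516, 223 and 336 CPM in FGF2 and 652, 568 and 398 CPM in FGF10, in replicate order. All SAG cultures were below all DMSO cultures, and all 6 cultures of replicates 1 and 2 in the FGF experiment were above all 5 of replicates 3 and 4. The group means were 544 ± 68.7 (DMSO), 539 ± 130 (FGF10), 438 ± 157 (PBS), 416 ± 167 (FGF2) and 220 ± 51.7 CPM (SAG; SD, n as above), of which only the last stood apart from its neighbor by more than the SD of either.

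*Dclk2* (chromosome 3, 86786150 to 86920952) encodes the near relative of *Dclk1*. Its values ran from 132 to 235 CPM in DMSO, 155 to 177 CPM in SAG, 142 to 209 CPM in PBS, 130 to 185 CPM in FGF2 and 148 to 201 CPM in FGF10. All 5 groups overlapped.

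*Stmn2* (chromosome 3, 8509527 to 8561604) encodes the stathmin SCG10 of growth cones. It was at 0.227, 2.26 and 10.2 CPM in DMSO, and at 0, 6.86 and 0 CPM in SAG replicates 1 to 3. It was at 1.71, 0.479, 1.64 and 1.36 CPM in PBS, 4.51, 3.88, 14.0 and 9.90 CPM in FGF2, and 9.44, 15.6 and 0 CPM in FGF10. The 4 FGF2 cultures were above the 4 PBS cultures, and the other groups overlapped. *Stmn3* (chromosome 2, 181306459 to 181314500), another neuronal stathmin, ran from 24.4 to 37.6 CPM in DMSO, 12.0 to 25.1 in SAG, 2.62 to 48.5 in PBS, 21.4 to 32.3 in FGF2 and 6.75 to 50.6 in FGF10. All of its groups overlapped.

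*Map1b* (chromosome 13, 99421464 to 99516602) encodes the first microtubule-associated protein of growing axons. It was at 240, 186 and 241 CPM in DMSO and at 98.7, 59.1 and 124 CPM in SAG. It was at 134, 125, 31.4 and 70.8 CPM in PBS, 165, 187, 59.6 and 26.4 CPM in FGF2, and 143, 147 and 64.1 CPM in FGF10. The DMSO cultures were above all SAG and all PBS cultures, and the replicates 1 and 2 of the FGF experiment were above its replicates 3 and 4 without overlap. The group means were 223 ± 31.6 (DMSO), 118 ± 46.7 (FGF10), 110 ± 78.5 (FGF2), 94.0 ± 32.8 (SAG) and 90.2 ± 48.0 CPM (PBS; SD), and the 4 lower groups did not differ beyond their spread.

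*Map2* (chromosome 1, 66175202 to 66442583) marks dendrites in neurons, and *Mapt* (chromosome 11, 104229409 to 104332090) encodes the axonal protein tau. *Map2* was at 873, 625 and 717 CPM in DMSO and at 556, 648 and 441 CPM in SAG, and between 570 and 732 CPM in all 11 cultures of the FGF experiment. *Mapt* was at 444, 394 and 416 CPM in DMSO and at 293, 324 and 335 CPM in SAG. It was at 550, 644, 608 and 444 CPM in PBS, 675, 645, 184 and 313 CPM in FGF2, and 567, 748 and 556 CPM in FGF10. The ranges of *Map2* in SAG and DMSO overlapped, while its 3 SAG cultures were below the 3 FGF10 cultures, and the 3 SAG cultures were below the 3 DMSO cultures for *Mapt*, and FGF2 replicates 3 and 4 had less *Mapt* than every other culture of the FGF experiment.

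The first comparison asked what activation of SHH signaling changed. With SAG, all 9 genes had a log2(fold-change) below 0 relative to DMSO, where 51.1% of the 12538 genes tested had. The best separated was *Dclk1*, with a log2(fold-change) of −1.29 (SE 0.22) and rank 12 by p (edgeR adjusted p = 0.0854), followed by *Map1b* at −1.22 (SE 0.29; edgeR adjusted p = 0.369, rank 48). At the limits used for a call (adjusted p below 0.01 with a log2(fold-change) beyond 1 in either direction), edgeR called 0 of the 9 genes, beside 0.0319% of all genes tested. Lower with an unadjusted p under 0.05 were 2 of the 9, *Dclk1* and *Map1b*, beside 3.06% of all genes. DESeq2 called these same 2 genes, with adjusted p-values of 1.97e-08 and 0.00173, beside 0.534% of the genes it tested that were called lower. The values were lower in SAG without overlap for 4 of 9 genes, *Dcx*, *Dclk1*, *Map1b* and *Mapt*, beside 8.18% of all genes. Nothing is read from these shares, since the 9 genes were picked with this contrast in view.

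The fold changes of the other genes had wide errors or were small. They were −1.5 (SE 0.75) for *Tubb3*, −0.68 (SE 0.68) for *Stmn3*, −0.41 (SE 0.19) for *Map2*, −0.37 (SE 0.17) for *Mapt* and −0.17 (SE 0.25) for *Dclk2*. For *Dcx* it was −3.87 (SE 2.28), and for *Stmn2* −0.87 (SE 3.03), both with 2 SAG libraries at 0. Without SAG replicate 2, when all SAG libraries left are at 0 and the size of a fit is no bound, these were −12.63 and −10.38, and with a replicate block −9.04 and −5.81. The edgeR adjusted p of *Dclk1* was 1.85e-05 with no filter on low counts and 6.61e-04 when genes averaging at least 10 counts were kept. In both settings edgeR called *Dclk1*. It also called *Map1b* with no filter (edgeR adjusted p = 0.00606, log2(fold-change) −1.23), though not with the filter on the mean (edgeR adjusted p = 0.0341). Over settings with no library left out, the adjusted p of *Dclk1* ran up to 0.225 with the 17 libraries in 1 fit. That p was 0.0974 to 0.409 with 1 library left out, while the log2(fold-change) of *Dclk1* stayed between −1.45 and −1.12. That of *Map1b* stayed between −1.48 and −0.97 with 1 library left out, and that of *Tubb3* moved between −2.54 without SAG replicate 3 and −0.87 without DMSO replicate 3. The value of *Stmn2* changed sign without DMSO replicate 3 (0.90), and that of *Dclk2* without DMSO replicate 2 (0.019).

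**Figure D2:**
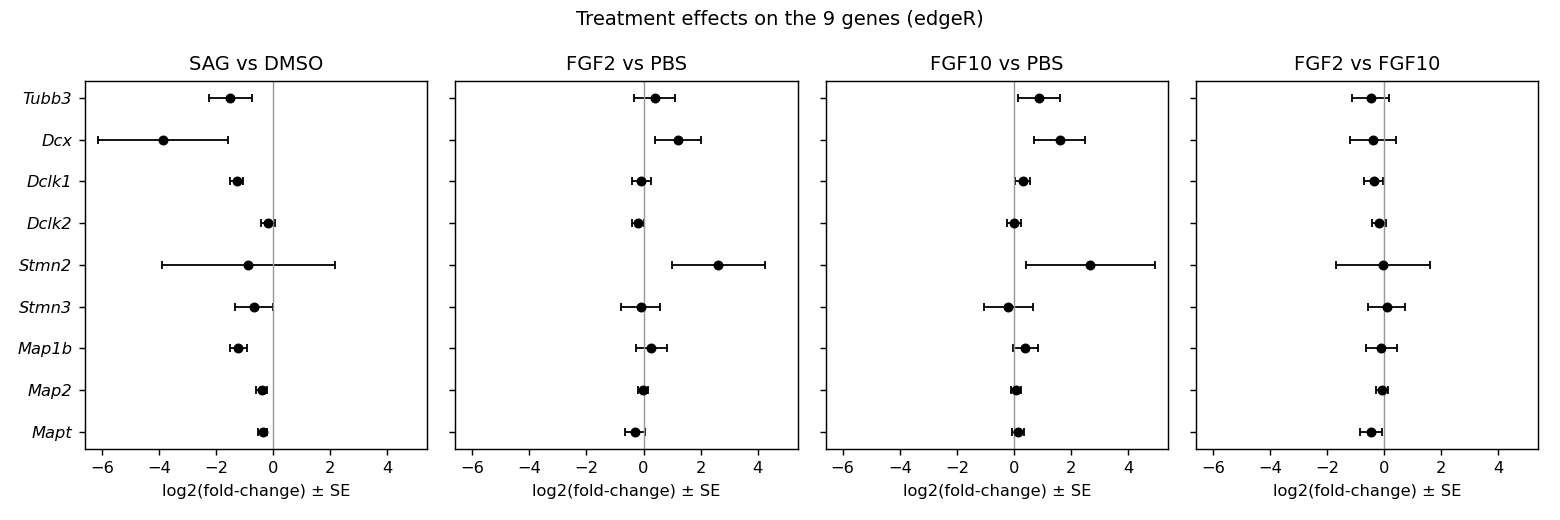
log2(fold-change) ± SE (x axes, edgeR) of the 9 genes (y axis) in the 4 treatment comparisons. All 9 points are left of 0 with SAG, where *Dclk1* and *Map1b* have SEs of 0.22 and 0.29. The FGF panels hold points on both sides of 0, and the bar of *Stmn2* with FGF10 is an SE of 2.26.

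FGF2 and FGF10 were each compared with PBS, using the same 4 PBS libraries. By edgeR, 0 of the 9 genes were called in either comparison, beside 0% of 12744 and of 13309 genes tested, where 223 and 305 genes were under an unadjusted p of 0.05 and DESeq2 called 78 genes (0.550%) and 65 genes (0.398%), with 0 of the 9 among them. *Dcx* had a log2(fold-change) of 1.20 (SE 0.80, 95% interval −0.36 to 2.76) with FGF2 and of 1.60 (SE 0.88, −0.12 to 3.33) with FGF10. *Stmn2* had 2.63 (SE 1.64) with FGF2, where its groups did not overlap beside 1.26% of all genes higher without overlap, and 2.68 (SE 2.26) with FGF10, where they did. *Tubb3* had 0.39 (SE 0.72) with FGF2 and 0.87 (SE 0.74) with FGF10. FGF10 has no replicate 4, so the replicate sets described further on are uneven between FGF10 and PBS, and these values are not adjusted for them. Over 7 other settings, the set as a term among them, *Dcx* with FGF10 ran from 0.82 to 1.59. *Stmn2* with FGF10 ran from 1.88 to 2.68 over these settings, and *Tubb3* from 0.66 to 0.86.

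The other 6 genes had these values. *Map2* differed from PBS by −0.01 (SE 0.17, 95% interval −0.35 to 0.33) with FGF2 and by 0.07 (SE 0.18, −0.28 to 0.42) with FGF10 on the log2 scale. *Dclk2* differed by −0.19 (SE 0.21) and by 0.00 (SE 0.23), *Dclk1* by −0.07 (SE 0.32) and 0.31 (SE 0.28), *Map1b* by 0.28 (SE 0.55) and 0.39 (SE 0.44), *Stmn3* by −0.10 (SE 0.68) and −0.19 (SE 0.86), and *Mapt* by −0.31 (SE 0.34) and 0.15 (SE 0.20).

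Since replicates 1 and 2 differed from 3 and 4 in these groups, the ligands were also compared within each set. The fold change of *Dcx* with FGF2 was 1.39 within replicates 1 and 2 and 0.69 within replicates 3 and 4, and that with FGF10 was 1.64 and −0.60, the last with a single FGF10 culture. That of *Tubb3* with FGF2 was 0.18 and 1.30, and with FGF10 0.51 and 0.85. That of *Mapt* with FGF2 was 0.15 and −1.08. The difference between the sets in the effect of FGF2 was tested for all genes by an interaction term chosen after seeing the data, which gave edgeR adjusted p-values of 0.906 (*Mapt*) to 1.00 for the 9 genes.

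FGF2 and FGF10 were compared directly at the same dose and time. Of the 9 genes, 0 were called, beside 0% of 13493 genes tested, where 324 were under an unadjusted p of 0.05 and DESeq2 called 62 genes (0.374%). All 9 genes overlapped between the ligands. The largest differences of FGF2 minus FGF10 were −0.47 (SE 0.65) for *Tubb3*, −0.46 (SE 0.38, 95% interval −1.20 to 0.29) for *Mapt* and −0.39 (SE 0.80, −1.97 to 1.18) for *Dcx*, and the narrowest interval was that of *Map2*, −0.46 to 0.30. These intervals leave room for differences of more than 1 on the log2 scale for *Tubb3*, *Dcx*, *Stmn2*, *Stmn3*, *Map1b* and *Mapt*. FGF10 has no replicate 4, so the replicate sets are uneven between the ligands, and these values are not adjusted for them. Over 7 other settings, the set as a term among them, *Tubb3* ran from −0.48 to −0.04 and *Dcx* from −0.40 to 0.30. Of the 9 genes, 8 were below 0 in the main fit, 6 with the set as a term and 5 with a replicate block.

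The vehicle groups differ in solvent, start day, days in culture and experiment, which cannot be told apart. *Map1b* was lower in PBS than in DMSO by a log2(fold-change) of −1.29 (SE 0.38) without overlap, beside 3.50% of 13271 genes tested, and *Mapt* was higher by 0.45 (SE 0.19) with overlap. Neither was called (edgeR adjusted p = 1.00 each), though *Map1b* was with no filter on low counts, and 0 genes were, with 580 under an unadjusted p of 0.05 and 89 (0.566%) called by DESeq2.

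Within the FGF experiment, levels were also compared between replicates 3 and 4 (5 cultures) and replicates 1 and 2 (6 cultures), with treatment as a covariate. The labels give only the numbers and name no batch. *Tubb3* was at 13.6 ± 9.0 CPM (SD, n = 5) in replicates 3 and 4 and at 60.3 ± 16.1 CPM (SD, n = 6) in replicates 1 and 2, a log2(fold-change) of −2.20 (SE 0.39, edgeR adjusted p = 8.76e-04). *Map1b* was at 50.5 ± 20.2 CPM against 150 ± 22.7 CPM, −1.55 (SE 0.25, edgeR adjusted p = 2.97e-04). These 2 of 9 genes were called lower, beside 0.637% of the 15849 genes tested, and 8 of 9 had a log2(fold-change) below 0, beside 52.5%. *Dclk1*, at 314 ± 63.5 CPM against 577 ± 52.7 CPM, had an adjusted p of 2.47e-04 by edgeR with a log2(fold-change) of −0.86 (SE 0.14) under the fold limit. Lower with an adjusted p under 0.05 by edgeR were 3 of 9, beside 1.60% of all genes.

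*Dcx* was at 6.70 ± 2.97 CPM in replicates 3 and 4 and 28.7 ± 14.5 CPM in replicates 1 and 2, −1.92 (SE 0.66, edgeR adjusted p = 0.128), and DESeq2 called it as well (adjusted p = 7.06e-04). DESeq2 called 3 of 9, *Tubb3*, *Dcx* and *Map1b*, beside 5.65% of the genes it tested that were called lower. *Mapt* had −0.65 (SE 0.19, edgeR adjusted p = 0.0566), and was −0.44 without FGF2 replicate 3. The values did not overlap for *Tubb3*, *Dcx*, *Dclk1* and *Map1b*, 4 of 9 genes, beside 2.11% of all genes lower without overlap. The other 4 genes had differences smaller than their SE, *Dclk2* of −0.01 (SE 0.17), *Map2* of −0.02 (SE 0.11), *Stmn3* of −0.42 (SE 0.61) and *Stmn2* of 0.22 (SE 1.91). *Tubb3* and *Map1b* kept their calls with each of the 11 libraries left out in turn. The SAG and DMSO libraries are not among these 11, and in both contrasts *Dclk1*, *Map1b* and *Dcx* were lower without overlap. The 9 genes and the sets were chosen with results of these data known, so this is no independent support. Lower without overlap were 8.18% of all genes with SAG and 2.11% between the sets. The share lower without overlap in both contrasts was not counted, so nothing is read from these genes being lower in both.

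**Figure D3:**
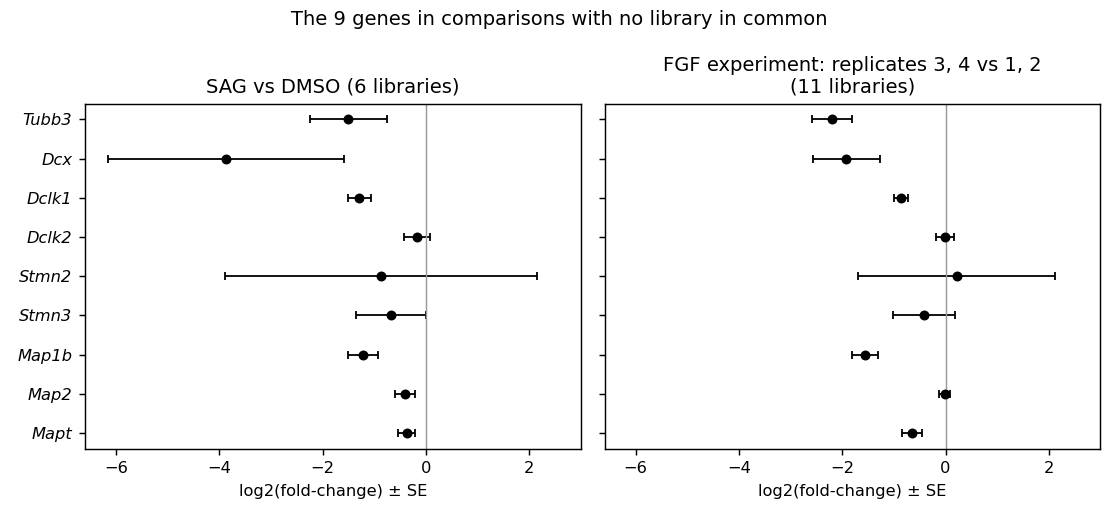
log2(fold-change) ± SE (x axes, edgeR) of the 9 genes (y axis) with SAG against DMSO (left, 6 libraries) and in replicates 3 and 4 against replicates 1 and 2 of the FGF experiment (right, 11 libraries). *Dclk1* is at −1.29 and −0.86, *Map1b* at −1.22 and −1.55, *Tubb3* at −1.5 and −2.20 and *Dclk2* at −0.17 and −0.01, while *Map2* is at −0.41 on the left and −0.02 on the right.

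Genes of other neuronal and glial programs differed along with the 9 genes, and their part in the result was not tested. Neuroblast and neurogenic factors had a median log2(fold-change) of −2.84 over 19 of 24 tested genes in replicates 3 and 4, with 3 called lower and 0 higher by edgeR (4 and 0 by DESeq2), beside −0.05 over all genes. The median was the same with *Dlx5*, *Dlx6* and *Nhlh1*, at 0 in all of replicates 3 and 4, set at a floor of 3 counts per library. Those called were *Dlx1* and *Dlx2*, homeobox factors of inhibitory neuron precursors, and *Igfbpl1*, a protein of neuroblasts. *Dlx1* was at 14.5 ± 13.0 CPM against 107 ± 32.4 CPM (SD, n = 5 and 6), −3.03 (SE 0.49). *Dlx2* was at 6.14 ± 5.70 CPM against 69.6 ± 29.6 CPM, and *Igfbpl1* at 19.8 ± 12.0 CPM against 132 ± 33.1 CPM, −2.84 (SE 0.31). The abundant *Sox4* and *Sox11* of this list (1296 and 459 CPM over all libraries) were not called.

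Of 26 neuronal markers, 22 were tested in that contrast with a median of −1.01. The RNA-binding protein gene *Celf4* (8.18 ± 7.61 against 56.5 ± 17.5 CPM), *Gad2*, which makes GABA (0.788 ± 1.76 against 35.4 ± 6.77 CPM), and the granin *Scg3* (95.4 ± 32.2 against 206 ± 24.9 CPM) were called lower, and *Gap43*, of growth cones (64.5 ± 44.5 against 13.7 ± 9.26 CPM), was called higher, by edgeR, where DESeq2 called 6 lower and 1 higher. The most abundant, *Elavl3*, *Scg3* and *Cplx2*, had 167, 141 and 135 CPM over all libraries, while 4 markers had a mean under 1 CPM. The summed level of the list was 732 to 774 CPM in PBS replicates 3 and 4 against 1064 to 1114 CPM in PBS replicates 1 and 2.

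With SAG, no gene of these lists was called by edgeR or DESeq2. The neuronal markers had a median log2(fold-change) of −0.39 with 6 of 18 tested genes lower without overlap, and the neuroblast factors −0.76 with 5 of 15, beside −0.02 and 8.18% over all genes. The level of *Celf4* was 8.58 ± 5.0 CPM in the SAG cultures against 44.4 ± 17.4 CPM in the DMSO cultures (SD, n = 3 each). *Elavl3* was at 114 ± 7.45 against 196 ± 53.0 CPM, and *Dlx2* at 22.0 ± 13.7 against 65.6 ± 22.9 CPM. The abundant marker *Cplx2* went the other way, at 211 ± 49.1 against 134 ± 40.4 CPM (0.68, SE 0.28). Above 0 were 6 of the 18 neuronal markers and 3 of the 15 neuroblast factors. The secretory granule gene *Chgb* and the bHLH factor *Neurod2* had the most negative fits, with all SAG cultures at 0 and means of 5.27 and 2.06 CPM in DMSO, and *Syn1* (0.95, SE 1.66) and *Hes6* (0.43, SE 0.30) the most positive. With FGF2, the neuronal markers ran from −0.53 (SE 1.04) for *Celf4* to 1.18 (SE 2.20) for *Chgb* and the neuroblast factors from −0.98 (SE 2.37) for *Sp8* to 0.60 (SE 1.55) for *Sp9*. With FGF10 they ran from −1.63 (SE 0.76) for *Gap43* to 3.60 (SE 3.27) for *Nefl* and from −2.57 (SE 3.43) for *Myt1l* to 1.23 (SE 0.56) for *Myt1*. For FGF2 minus FGF10 they ran from −1.10 (SE 1.86) for *Chgb* to 2.12 (SE 0.90) for *Gap43* and from −1.26 (SE 2.93) for *Neurod2* to 2.05 (SE 2.86) for *Myt1l*. In these 3 comparisons 0 genes of either list were called.

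Other genes of microtubules were then counted. Of 14 other tubulins, 0 were called in any comparison. *Tubb2b*, *Tuba1a* and *Tubb5* led with 2558, 669 and 495 CPM, each far above the 39.2 CPM of *Tubb3*. In replicates 3 and 4, *Tuba1a* was lower by −0.45 (SE 0.12, edgeR adjusted p = 0.0248) and *Tubb2a* by −0.70 (SE 0.18, edgeR adjusted p = 0.0198), and the median over 12 tested tubulins was −0.40. With SAG the median over 11 was −0.30, between −2.50 (SE 3.12) for *Tubb4a* and 1.81 (SE 1.25) for *Tubb6*. With FGF2 it was 0.27, from −2.44 (SE 2.22) for *Tubg2* to 0.52 (SE 0.57) for *Tubg1*, and with FGF10 0.22, from −2.13 (SE 3.02) for *Tubg2* to 0.40 (SE 0.34) for *Tubb2a*. Between FGF2 and FGF10 the extremes were *Tubb4a* (−0.60, SE 0.72) and *Tuba1c* (0.61, SE 2.99).

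Of 31 other microtubule-associated proteins and stathmins, 1 was called by edgeR in any comparison, the plus-end protein gene *Clip1*, while DESeq2 called 3 lower between the replicate sets. *Clip1* was at 30.8 ± 17.7 CPM in replicates 3 and 4 and 68.8 ± 29.3 CPM in replicates 1 and 2 (−1.36, SE 0.30). *Stmn1*, the stathmin of dividing cells, was higher there by 0.84 (SE 0.24, edgeR adjusted p = 0.0490), opposite in sign to *Dcx* and *Tubb3*. The list led with *Dpysl3*, *Mapre1* and *Map4* (319, 242 and 138 CPM). Its median was −0.19 with SAG, from −1.46 (SE 1.74) for *Mtcl1* to 1.66 (SE 2.97) for *Dcdc2a*, 0.02 with FGF2, from −2.04 (SE 1.84) for *Map7* to 2.27 (SE 2.64) for *Camsap3*, and 0.01 with FGF10, from −1.12 (SE 0.46) for *Clip1* to 1.77 (SE 2.58) for *Camsap3*. Between FGF2 and FGF10 its extremes were *Map7* (−1.71, SE 2.20) and *Stmn4* (1.23, SE 2.54). Of the kinases and tubulin modifiers, led by *Gsk3b*, *Sirt2* and *Cdk5r1* (330, 247 and 93.4 CPM), 0 of 20 were called in any comparison. Repressors of neuronal genes, led by *Hes5*, *Hes1* and *Ctdsp2* (320, 304 and 302 CPM), had 1 call, *Hes5*, a Notch target, at 523 ± 142 CPM in replicates 3 and 4 against 246 ± 37.7 CPM (1.12, SE 0.17).

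**Figure D4:**
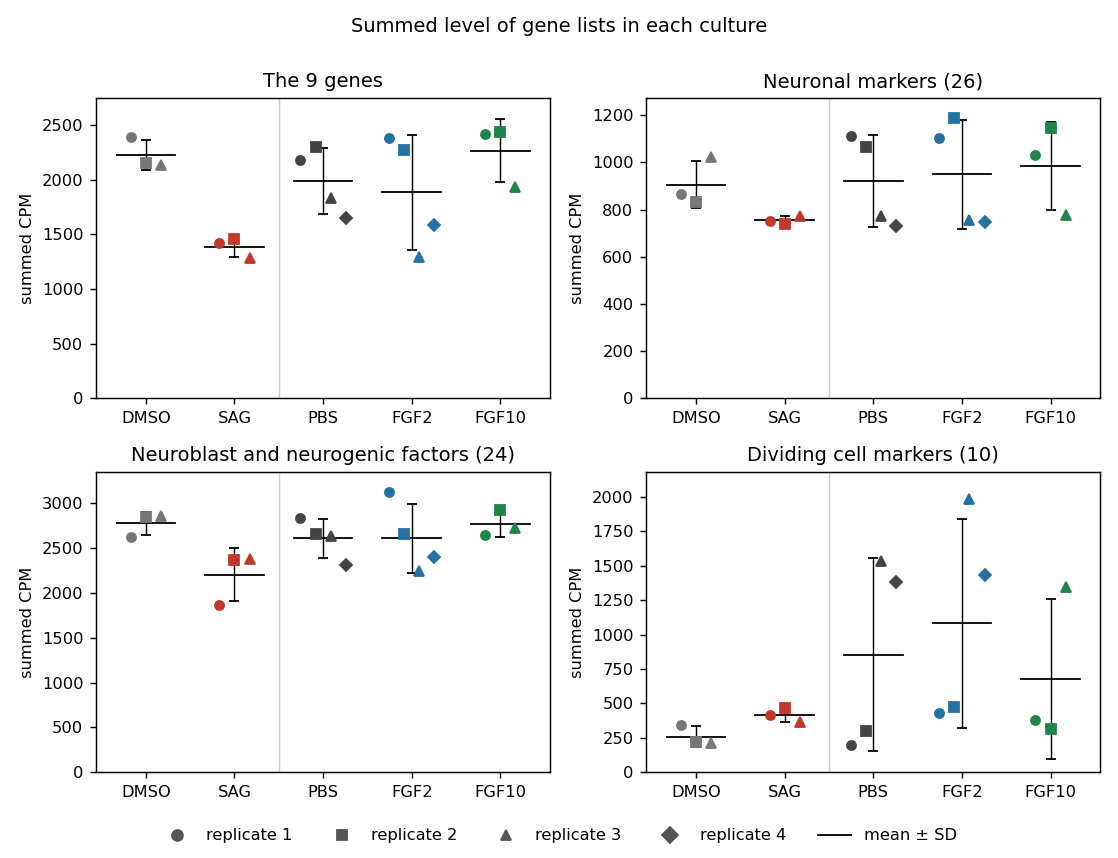
Summed CPM (y axes, from 0) of the 9 genes, 26 neuronal markers, 24 neuroblast and neurogenic factors and 10 dividing cell markers in each of 17 cultures, with mean ± SD per group. The 9 genes sum to 1281 to 1461 CPM with SAG and 2137 to 2387 CPM with DMSO, and in the FGF experiment the triangles and diamonds of replicates 3 and 4 lie low for the 9 genes and the neuronal markers and high for the dividing cell markers.

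Markers of cells other than neurons also differed between the replicate sets, with calls by edgeR unless DESeq2 is named. Among 10 dividing cell markers, 7 were called higher in replicates 3 and 4 (*Mki67*, *Top2a*, *Ccnb1*, *Cdk1*, *Cenpf*, *Aurkb* and *Ube2c*), with a median of 2.61. *Top2a* was at 620 ± 102 CPM against 140 ± 54.6 CPM, and their summed level ran from 1347 to 1982 CPM in replicates 3 and 4 and from 197 to 472 CPM in replicates 1 and 2. *Olig1* and *Olig2*, of oligodendrocyte precursors and some astrocytes, were called higher (1608 ± 167 against 587 ± 42.7 CPM for *Olig1*), in a list with a median of −0.92 in which edgeR called 2 genes higher and 1 lower and DESeq2 2 and 3. The myelin gene *Cnp* was another abundant gene of that list (330 CPM), and 2 of its 14 genes had a mean under 1 CPM.

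Among astrocyte markers *Gfap* (48.0 ± 30.5 against 310 ± 52.5 CPM) and *Gja1* (137 ± 76.2 against 286 ± 33.4 CPM) were called lower, with a median of −0.44 over 14 tested. Of the ependymal markers, *Foxj1* and *Dynlrb2* were called lower, with a median of −2.73 over 8, and of the endothelial and mural markers *Acta2* was called lower, with a median of −4.49 over 5, or −3.48 with *Pecam1*, at 0 in all of replicates 3 and 4, set at the floor of 3 counts per library. Fibroblast markers had 0 calls, as had microglial markers. *Rsph1* was the third most abundant ependymal gene (14.5 CPM), *Pdgfrb* (16.5 CPM) and *Kdr* (5.2 CPM) followed *Acta2* (152 CPM), and *Pdgfrl* (28.3 CPM) led the fibroblast genes. The number of genes under a mean of 1 CPM was 1 of 8 ependymal, 7 of 11 endothelial and mural, 3 of 6 fibroblast and 0 of 10 dividing cell markers.

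With SAG, *Olig1* was the only gene of these lists called by edgeR, at 1742 ± 39.0 CPM against 725 ± 39.8 CPM (SD, n = 3; 1.29, SE 0.14, edgeR adjusted p = 0.00420), and *Gfap* was at 40.4 ± 17.7 CPM against 174 ± 30.7 CPM (−2.08, SE 0.35, edgeR adjusted p = 0.0854). DESeq2 also called *Gfap* (adjusted p = 1.49e-07) and the ependymal gene *Ccdc153* (adjusted p = 0.00500) lower, the latter at 0 in all SAG cultures and 7.71 ± 6.20 CPM with DMSO. The summed dividing cell markers were at 367 to 468 CPM with SAG and 211 to 347 CPM with DMSO, and the summed ependymal markers at 118 to 166 CPM against 249 to 322 CPM. Opposite in sign to *Olig1* was *Sox10* (−1.11, SE 0.33), and opposite to *Gfap* was *Slc4a4* (0.91, SE 0.23), within the same lists. The oligodendrocyte lineage list had a median of −0.59 over 11 tested genes, 4 above and 7 below 0. The astrocyte list had −0.06 over 14, 6 above and 8 below 0, beside −0.02 over all genes. Whether any of these cell types carries the 9 transcripts was not tested.

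**Figure D5:**
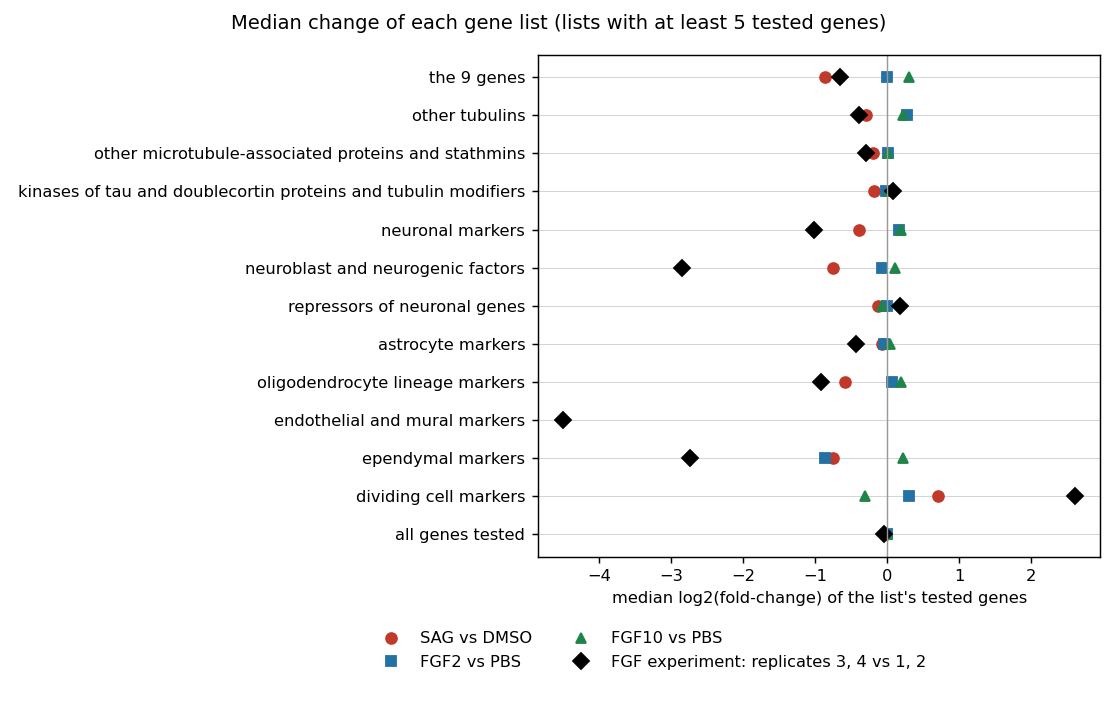
Median log2(fold-change) (x axis) over the tested genes of each list (y axis) for SAG vs DMSO, FGF2 vs PBS, FGF10 vs PBS and the replicate sets of the FGF experiment; a symbol is drawn where at least 5 genes were tested. The 9 genes stand at −0.87 with SAG (the value of *Stmn2*, with a median of −0.44 without SAG replicate 1 and −1.28 with a replicate block) and −0.65 between the sets, the neuroblast factors at −0.76 and −2.84, and the medians over all genes within 0.05 of 0.

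Lastly, the genes whose levels followed each of the 9 most closely within groups were sought among 15463 genes, by Pearson's r of the deviations of log2 CPM from the group means over the 17 libraries. Since replicate sets and depth are common to all genes of a library, r is a description. Genes that followed *Dclk1* closely were *Dusp18* (r = 0.94) and *Nrbp2* (0.93). *Map1b* was followed most closely by *Hivep2* (0.93), *Meg3* and *Fxyd1* (0.92 and 0.91), *Mapt* by *Ttyh1* (0.94), *Psd2* (0.94) and *Nsg2* (0.92), and *Tubb3* by *Rln1* (0.95), *Emp2* and *Ctnna2* (0.89 each). *Dcx* was followed by *Zfp948* (0.92), *Fam161b* (0.89) and 1700095J03Rik (0.87), *Dclk2* by *Tollip* (0.84), *Sergef* (0.84) and *Sap30* (0.83), *Stmn2* by *Kantr* (0.95), *Mybl1* (0.93) and *Tpcn2* (0.89), *Stmn3* by *Supt6* (0.95), *Wdr90* (0.92) and *Stk36* (0.89), and *Map2* by Gm38365 (0.88), 2900052L18Rik (0.88) and ENSMUSG00000120681 (0.85). Among the 9 genes themselves, *Tubb3*, *Dclk1*, *Map1b* and *Mapt* followed each other (r between 0.50 and 0.70), and *Dcx* followed *Stmn2* (0.78). *Dclk2*, *Stmn3* and *Map2* followed none closely (r of at most 0.28, 0.30 and 0.36). For *Stmn2* and *Dcx* the deviations include libraries at 0.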

How the data were processed

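RNA of 17 cultures of immunopanned mouse astrocytes was sequenced from the 3′ ends of poly(A) transcripts after removal of BC1 RNA. The authors aligned reads with STAR and deposited whole-number counts per gene without normalization; their processing notes name GRCm38 and DESeq2, and the annotation, strand setting and any removal of PCR copies are not given in the sources used here. FGF2 cultures number 3 in the methods and 4 in the labels, and the 4 entered every fit. Groups and replicate numbers came from the labels; the count columns of SAG cultures are named Shh.

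Of 56805 rows, 114 spike-in rows (at most 86 counts in a library) were left out. Each comparison was fitted on its own libraries in R 4.3.3 with edgeR 4.0.16 (filterByExpr at 10 counts and a total of 15, TMM, quasi-likelihood test, Benjamini-Hochberg over all genes tested), and a gene was called at the authors' threshold, adjusted p below 0.01 with a log2(fold-change) beyond 1 in either direction. DESeq2 1.42.0 was an alternative, beside other normalization, filters, thresholds, groups in the fit, a replicate block, replicate sets and each library left out. The SE was taken from the F statistic. The test was run on simulated counts, but its power at the spread of these libraries is not reported here. The common coefficient of variation between replicates, as estimated by edgeR, ran from 107% (FGF2 against PBS) to 131% (between the replicate sets). A lack of calls is therefore not read as a lack of change.

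The 9 genes and the gene lists (other tubulins, other microtubule-associated proteins, their kinases and tubulin modifiers, neuronal, neuroblast, repressor and cell type markers) were chosen with earlier results of these data known, as were the replicate sets. Named are the 9 genes and, of each list, genes called in any comparison, the 3 most abundant and, for 4 lists, the largest rise and fall with each treatment; *Stmn1* and the genes at 0 in a group were named after their values were seen. Some genes that this rule names are not reported here.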

Additional observations from a re-analysis of the deposited data

Results flagged for a closer look

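*Mapt* moved in opposite directions with FGF2 in the replicate sets. Its log2(fold-change) of FGF2 against PBS was 0.15 within replicates 1 and 2 and −1.08 within replicates 3 and 4, and each FGF2 culture lay on that side of the PBS mean of its set. The difference between the sets, tested by an interaction term in edgeR that was chosen after seeing the data, was −1.23 (SE 0.36, unadjusted p = 0.00314, edgeR adjusted p = 0.906 over 15100 genes). In 18 groups of 4 libraries tested for a library far from the others among the 9 genes, 0 were flagged.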

How the results depend on the processing

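With SAG, the 4 genes called became 8 at an adjusted p under 0.05 with or without the fold limit, 39 with no filter, 21 when genes averaging at least 10 counts were kept, 158 with DESeq2, and 0 to 1 with any 1 of the 6 libraries left out. With DESeq2, counts of 0 became 78 with FGF2, 65 with FGF10, 62 between the ligands and 89 between the vehicles, and with no filter 2 between the ligands and 21 between the vehicles. Between the replicate sets, 209 became 586 at an adjusted p under 0.05, 325 with the fold limit kept, 339 with no filter, 353 with the filter on the mean and 1745 with DESeq2. On genes that edgeR also tested, DESeq2 called 62 higher and 80 lower with SAG, 4 and 7 with FGF2, and 13 and 25 with FGF10. It called 23 and 9 of them between the ligands, 36 and 8 between the vehicles, and 334 and 585 between the sets. The other DESeq2 calls were on genes that the edgeR filter on low counts had left out. Why the counts differ beyond that was not tested. Of the fold changes of the 9 genes under other settings, 780 moved by less than the SE of the main fit and 21 by more. With SAG that SE is 3.03 for *Stmn2* and 2.28 for *Dcx*, so large shifts can count as small there. Of 90 levels under other normalization, 0 moved by more than the SD between replicates.

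Same-numbered cultures correlated by −0.01 to 0.13 in their deviations. The best match had the same number for SAG replicates 2 and 3, FGF2 replicates 2 and 4 and FGF10 replicates 1 and 2 against vehicle. It also did for FGF2 replicates 1 and 3 against FGF10. The rest best matched another number, in the FGF experiment always one of the same replicate set. With such low correlations the numbers were not taken to pair cultures in the main fits, and pairing was not tested. A replicate block gave 6 calls with SAG, 0 of them among the 9 genes, with an adjusted p of 0.0241 for *Dclk1*, and 0 calls in the other treatment comparisons. *Dcx* and *Stmn2* were at 0 in 2 and 3 libraries, which limits their fold changes. Both were at 0 in SAG replicates 1 and 3, with 33099020 and 30769042 total counts, and *Stmn2* also in FGF10 replicate 3, with 37173676. Of genes with a mean of 10 to 30 CPM, 7.77%, 5.60% and 2.09% were at 0 in these libraries. Whether depth is the cause was not tested.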
